A study of Homo sapiens with 5 samples.

Results

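The genes described here are 42 genes of glucose use and of the response to low oxygen. They were picked by symbol from what the genes are known to do, and all 42 were found among the 64252 gene identifiers of the count table. The table holds polyA RNA-seq of RPE-1 cells, an immortalized human line derived from the retinal pigment epithelium, with a wild-type (WT) genotype by its label. In the siCtrl group (3 libraries) cells received ON-TARGET Control #1, and in the siFAM53C group (2 libraries) they received ON-TARGETplus pooled siRNAs against FAM53C, in both groups at 5 µM with Lipofectamine RNAiMAX. RNA was collected 48 hr after transfection from cells grown in high glucose medium, and the labels name no treatment with low oxygen. The study asks what loss of FAM53C, a regulator of the G1/S transition, does to gene expression. The siRNAs were a pool, all libraries come from 1 cell line, and nothing states that the libraries of a group came from separate cultures, so that p-values measure only the spread between these libraries, which may be technical.

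Glycolysis takes glucose in through the GLUT transporters, splits it to pyruvate in a chain of enzymes that begins with hexokinase, and disposes of pyruvate either in mitochondria or as lactate, which leaves the cell through the MCT transporters. The hypoxia-inducible factors (HIF) pair an oxygen-labile alpha subunit, HIF1A or EPAS1, with ARNT. In the presence of oxygen, prolyl hydroxylases of the EGLN family mark the alpha subunits for destruction through the VHL ubiquitin ligase, and when oxygen falls the pair binds a short DNA core and turns on most of the glycolytic genes together with genes of blood vessel growth, pH control and mitophagy. The alpha subunits are set mainly at the level of protein, which mRNA counts do not show.

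Total counts ran from 19260124 to 25615415 per library. FAM53C itself was counted 1434, 1141 and 1099 times in siCtrl and 375 and 525 times in siFAM53C, which gave a log2 fold change (log2FC) of -1.71 ± 0.194 (SE, adjusted p = 0.00363, edgeR). Of the markers of pigment epithelium, RPE65 and TTR had no count in any library and RLBP1 and TYR at most 2, BEST1 and PMEL were low in every library (4 to 15 and 13 to 29 counts), and the transcription factors MITF and OTX2 were counted in every library, so that 4 of the 8 markers were at or near 0. KRT8, KRT18, VIM, FN1 and CDH2 were abundant, and KRT7 was lower (111 to 218 counts). CDH1, EPCAM, KRT19, CD3E, CD68, CDH5 and VWF were at or near 0, with at most 5 counts in any library. The immune marker PTPRC had 2 to 20 counts and the endothelial marker PECAM1 4 to 20. The libraries did not fall apart by siRNA alone. On the first principal component of all tested genes, which held 39.8% of the variance, siCtrl replicates 1 and 2 lay at -31.5 and -47.4 and siFAM53C replicate 1 at 0.264, whereas siCtrl replicate 3 and siFAM53C replicate 2 lay at 33.7 and 44.9. The differences within each side of this split (siFAM53C replicate 1 minus the mean of siCtrl replicates 1 and 2, and siFAM53C replicate 2 minus siCtrl replicate 3, in log2 CPM, counts scaled to library size) are therefore given beside the results below. On this component siFAM53C replicate 1 lay between the siCtrl libraries of the 2 sides, so that placing it with siCtrl replicates 1 and 2 is a choice.

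Of the 42 genes, 41 had enough counts to be tested. SLC2A3, the high-affinity neuronal-type glucose transporter GLUT3, rose in siFAM53C, and EGLN1, the main prolyl hydroxylase (PHD2), fell. No other gene of the 41 passed an adjusted p of 0.05 (edgeR quasi-likelihood test, p adjusted by Benjamini-Hochberg over the 15341 genes tested). Over all genes tested, 0.489% were called higher and 3.47% lower, against 1 of 41 in each direction here. The median log2FC of the 41 genes was -0.05, beside 0.02 for all genes tested, and 34 of the 41 lay within 0.5 of 0 on the log2 scale. In bulk RNA of this kind, fewer cells of a type and less RNA per cell cannot be told apart.

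**Figure D1:**
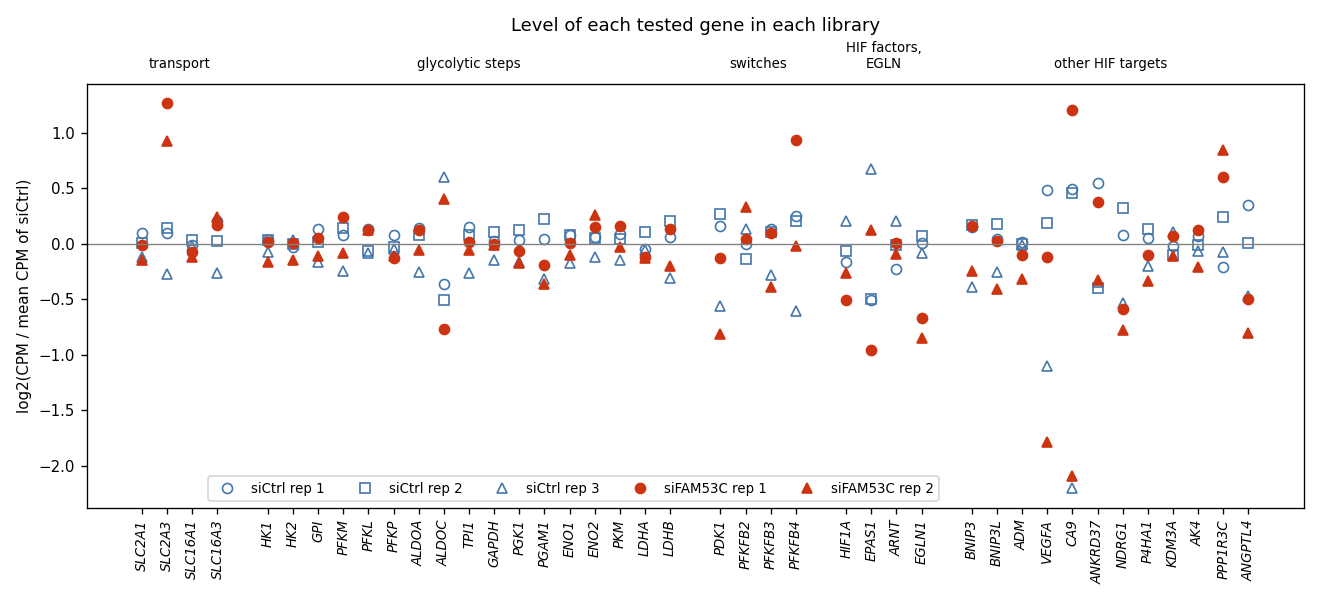
Level of each of the 41 tested genes in each library, as log2 of CPM over the mean CPM of the 3 siCtrl libraries; open blue symbols are siCtrl and filled red symbols siFAM53C, and triangles are siCtrl replicate 3 and siFAM53C replicate 2. Most genes of the glycolytic steps sit within 0.5 of 0 in all libraries, SLC2A3 stands above every siCtrl library and EGLN1 below, and VEGFA and CA9 spread widely within both groups.

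Levels are given as CPM, the count scaled to the library size with TMM factors. Among the 4 transport genes, SLC2A1 encodes GLUT1, the basal glucose transporter of most cells. Its level was 644, 605 and 553 CPM in siCtrl and 596 and 544 CPM in siFAM53C, and the groups overlapped (log2FC -0.08, adjusted p = 0.819, edgeR). SLC2A3 stood at 37.4, 38.6 and 28.9 CPM in siCtrl and at 84.0 and 66.3 CPM in siFAM53C. Both siFAM53C libraries were above all 3 siCtrl libraries, and the means were 34.9 ± 5.30 (SD, n = 3) and 75.2 ± 12.5 (SD, n = 2). The log2FC of SLC2A3 was 1.10 ± 0.163 (SE, adjusted p = 0.0119, edgeR), a 2.15-fold higher level, and the difference was 1.14 on one side of the library split and 1.20 on the other. The gene lies at chr12:7919230-8019007 on the minus strand of hg38 (GENCODE 44).

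SLC2A3 has a near-identical neighbour, SLC2A14, which was counted 0 times in each siCtrl library and 6 and 0 times in siFAM53C. The 3 annotated pseudogenes of SLC2A3 held 9 counts in all, 0.151% of those of the gene. The call was lost without siCtrl replicate 1 (adjusted p = 0.0598), siCtrl replicate 2 (0.0553) or siFAM53C replicate 1 (0.0993, log2FC 0.92), and held without the other libraries.

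The 2 lactate transporters did not pass the test. SLC16A1 (MCT1), which moves lactate in both directions, had a mean of 136 ± 2.67 CPM (SD, n = 3) in siCtrl and 127 ± 2.92 CPM (SD, n = 2) in siFAM53C, with no overlap but a log2FC of -0.10 (adjusted p = 0.676, edgeR). SLC16A3 (MCT4), the exporter of highly glycolytic cells, had 363 ± 58.4 CPM (SD, n = 3) and 419 ± 14.7 CPM (SD, n = 2), and the groups overlapped.

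The 17 genes of the glycolytic steps hold the enzymes from hexokinase to lactate dehydrogenase, and none was called in either direction. With no adjustment of p the count was also 0 in both directions, against 6.61% of all genes higher and 10.5% lower, and DESeq2 (2.02% of the 12749 genes with an adjusted p higher, 6.98% lower) and limma-voom likewise called none. Their log2FC values ran from -0.28 for PGAM1 (phosphoglycerate mutase) to 0.21 for ENO2 (the neuronal-type enolase) with a median of -0.03. Together they took 2.06%, 2.09% and 1.78% of all counts in siCtrl and 2.14% and 1.97% in siFAM53C. By this share both siFAM53C libraries exceeded siCtrl replicate 3, and one of them all 3 siCtrl libraries. With TMM factors their summed level was 21106, 21519 and 18006 CPM in siCtrl. It was 20706 and 19237 CPM in siFAM53C, inside the siCtrl range, so that this order depends on the scaling. The scale is that of a housekeeping pathway: per exon length, as TPM (counts over exon length, scaled to the same total in every library), GAPDH reached 9230 ± 576 TPM (SD, n = 3) in siCtrl.

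Below GAPDH, ENO1 followed at 2338 ± 180.5 TPM, PKM (pyruvate kinase) at 1790 ± 114 TPM and TPI1 (triose phosphate isomerase) at 1680 ± 211 TPM (SD, n = 3 each). The means of PKM and TPI1 lay within their spread over libraries, though PKM was above TPI1 in each of the 5 libraries. LDHB came next at 1430 ± 219.8 TPM and was above both ALDOA, at 1231 ± 152 TPM, and PGAM1, at 1224 ± 199 TPM (SD, n = 3 each), in each of the 5 libraries, while PGAM1 was above ALDOA in siCtrl replicate 2 and below it in the other libraries. ALDOC, the brain-type aldolase, closed the order at 2.15 ± 1.02 TPM (SD, n = 3).

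GAPDH, the dehydrogenase often used as a reference gene, was counted at 5738, 6046 and 5093 CPM in siCtrl and 5633 and 5578 CPM in siFAM53C. The siFAM53C values fell inside the siCtrl range, and the log2FC was -0.01 ± 0.132 (SE). HK2, the inducible hexokinase, lay at 83.6, 84.7 and 87.1 CPM in siCtrl and at 85.6 and 77.1 CPM in siFAM53C, again with overlap (log2FC -0.07 ± 0.102, SE). Scaling to total counts moved the median of all genes by 0.07, and GAPDH to 0.07 and HK2 to 0.01 with it.

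LDHA, which makes lactate from pyruvate, stood at 1363, 1515 and 1356 CPM in siCtrl and 1303 and 1294 CPM in siFAM53C. Both siFAM53C libraries lay below siCtrl, but by a log2FC of only -0.12 ± 0.117 (SE, adjusted p = 0.683, edgeR). ENO2 was outside the siCtrl range in the other direction, at 182 ± 12.7 CPM (SD, n = 3) against 210.4 ± 11.4 CPM (SD, n = 2), with an adjusted p of 0.395 in edgeR. PFKP, the platelet-type phosphofructokinase, was the remaining enzyme without overlap, at 388 ± 19.2 CPM (SD, n = 3) and 357 ± 3.27 CPM (SD, n = 2; log2FC -0.12, adjusted p = 0.647, edgeR). HK1, GPI, PFKM, PFKL, ALDOA, ALDOC, TPI1, PGK1, PGAM1, ENO1, PKM and LDHB overlapped between the groups. Several of these enzymes have many processed pseudogenes, and those of GAPDH (65 annotated) held 0.24% of the counts of the gene and those of TPI1 1.13%.

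**Figure D2:**
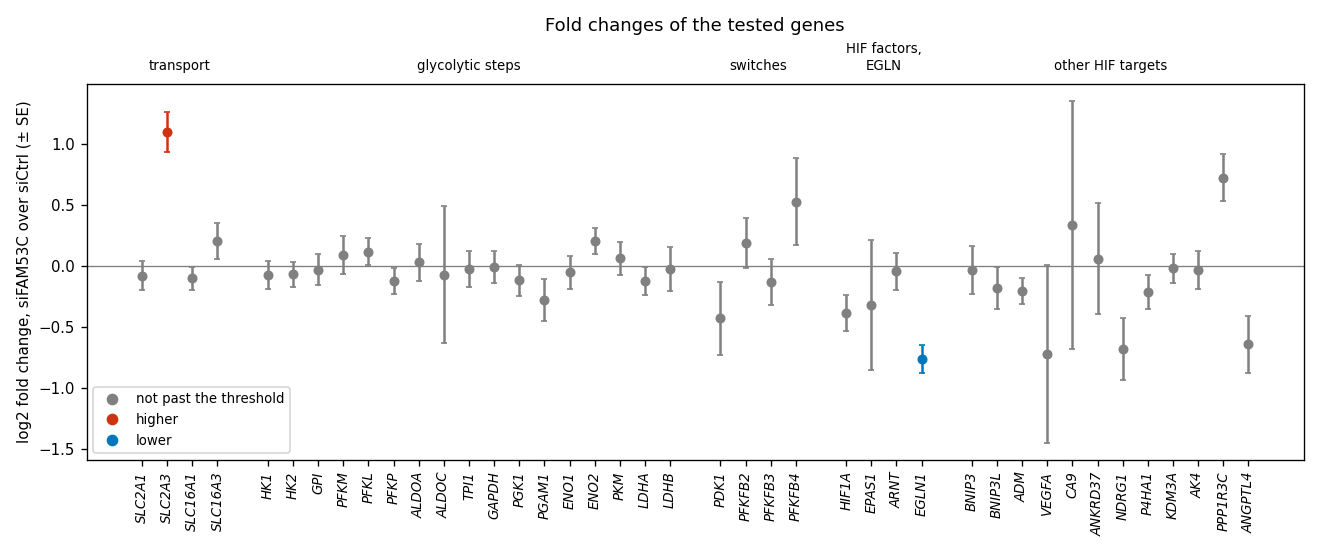
log2 fold change of siFAM53C over siCtrl for each tested gene, with bars of ± 1 SE from edgeR, by role; red marks the gene called higher, blue the gene called lower and grey those not past the threshold. SLC2A3 at 1.10 and EGLN1 at -0.76 are the 2 coloured points, and the bars of VEGFA, CA9 and ALDOC cross 0 widely or reach it.

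The switches of glycolysis set how fast glucose is used. PFKFB2, PFKFB3 and PFKFB4 make or break fructose 2,6-bisphosphate, the strongest activator of phosphofructokinase, and PDK1 closes the entry of pyruvate into mitochondria. None of the 4 was called, none passed with no adjustment of p, and DESeq2 and limma-voom called none. PFKFB4 lay at 30.8, 29.7 and 17.0 CPM in siCtrl and at 49.3 and 25.4 CPM in siFAM53C. Its siFAM53C libraries were 0.70 and 0.58 above the siCtrl libraries of their own side of the split, while the 2 groups overlapped as a whole (log2FC 0.53 ± 0.355, SE, adjusted p = 0.530, edgeR). The value came to -0.03 without siFAM53C replicate 1.

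PDK1 stood at 22.0, 23.7 and 13.4 CPM in siCtrl and 18.1 and 11.2 CPM in siFAM53C, with overlap and a log2FC of -0.43 ± 0.299 (SE, adjusted p = 0.542, edgeR). PFKFB3, the induced isoform of many dividing cells, was at 44.6, 43.7 and 33.4 CPM in siCtrl and 43.3 and 30.9 CPM in siFAM53C. It overlapped between the groups and turned from -0.13 to 0.09 without siFAM53C replicate 2. PFKFB2, at 8.31 ± 0.791 CPM (SD, n = 3) in siCtrl and 9.49 ± 1.34 CPM (SD, n = 2) in siFAM53C, also overlapped.

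Where a step is served by several genes, the share of each in the summed TPM of its family was compared in each library, as a description with no test, since 3 against 2 libraries cannot go below an exact two-sided permutation p of 0.2. SLC2A3 made up 5.02% ± 0.478 of the summed SLC2A1 and SLC2A3 level in the control libraries (SD, n = 3) and 10.7% ± 0.970 after knock-down (SD, n = 2), so that GLUT1 remained the main transporter in every library. The share of PFKL in phosphofructokinase was 21.4% ± 0.729 (SD, n = 3) and 23.8% ± 0.585 (SD, n = 2), and that of PFKP 61.8% ± 1.43 (SD, n = 3) and 58.0% ± 1.87 (SD, n = 2). In the PFKFB family, PFKFB4 took 35.7% ± 4.49 in the control libraries (SD, n = 3) and 45.6% ± 6.95 after knock-down (SD, n = 2). These shares did not overlap between the groups. Nor did those of PFKFB3 (57.1% and 46.8%, means), ENO2 (6.69% and 7.88%, means) and SLC16A3 (64.5% and 69.4%, means). All were higher in siFAM53C except PFKP and PFKFB3. The shares of SLC2A1, ENO1 and SLC16A1, which make up the rest of their families, were lower without overlap and only mirror those of their partners. Of the levels of all genes tested, 35.5% did not overlap between the groups, and shares in other gene families were not compared. The shares of the hexokinases, aldolases, lactate dehydrogenases and HIF alpha subunits overlapped.

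**Figure D3:**
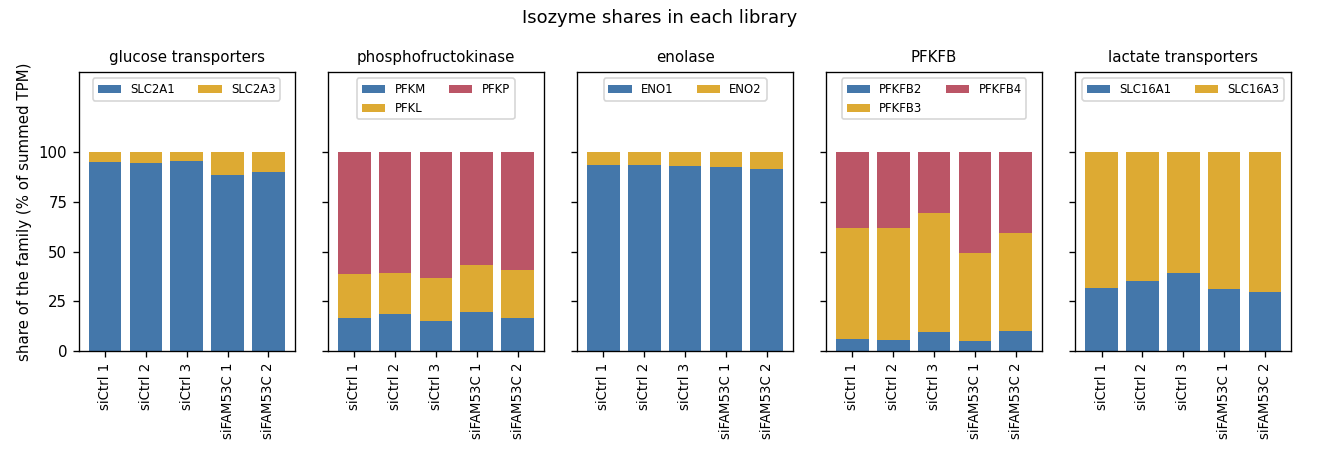
Share of each gene in the summed TPM of its family (%), stacked per library, for the 5 families with shares that did not overlap between siCtrl and siFAM53C. The SLC2A3 share is about 5.02% in siCtrl and 10.7% in siFAM53C on average, and PFKFB4 takes a larger share in both siFAM53C libraries than in any siCtrl library.

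Among the HIF factors and prolyl hydroxylases, EGLN1 fell. Its level was 83.1, 86.7 and 78.3 CPM in siCtrl and 51.9 and 45.8 CPM in siFAM53C. Both siFAM53C libraries were below all siCtrl libraries, with means of 82.7 ± 4.23 (SD, n = 3) and 48.8 ± 4.31 (SD, n = 2). The log2FC was -0.76 ± 0.114 (SE, adjusted p = 0.0124, edgeR), a level of 0.591 times that of siCtrl, and the differences within the sides of the split were -0.71 and -0.77. The call held without siCtrl replicate 3 and was lost without any other library, with adjusted p from 0.065 to 0.124, while the log2FC stayed between -0.86 and -0.67. EGLN1 lies at chr1:231363751-231422287 on the minus strand of hg38. EGLN1 is itself a known target of HIF. Its promoter window is shown here with those of PPP1R3C and ANGPTL4, described below, because these are the genes whose siFAM53C libraries both lay outside the siCtrl range, with a log2FC of at least 0.5 in size, and which had a window in the RefSeq table (GRCh38.p14, from 250 bases before the transcription start to 50 after it, 5′ to 3′ on the strand of the gene). Capitals mark the core of the hypoxia response element, ACGTG or GCGTG on either strand.
EGLN1 (chr1:231422238-231422537, minus strand): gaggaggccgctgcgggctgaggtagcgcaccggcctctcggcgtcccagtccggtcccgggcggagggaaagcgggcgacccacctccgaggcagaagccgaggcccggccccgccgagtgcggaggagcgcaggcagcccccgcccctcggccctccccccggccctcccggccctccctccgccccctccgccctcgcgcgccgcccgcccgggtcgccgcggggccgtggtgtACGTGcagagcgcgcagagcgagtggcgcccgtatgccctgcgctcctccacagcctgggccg
PPP1R3C (chr10:91633022-91633321, minus strand): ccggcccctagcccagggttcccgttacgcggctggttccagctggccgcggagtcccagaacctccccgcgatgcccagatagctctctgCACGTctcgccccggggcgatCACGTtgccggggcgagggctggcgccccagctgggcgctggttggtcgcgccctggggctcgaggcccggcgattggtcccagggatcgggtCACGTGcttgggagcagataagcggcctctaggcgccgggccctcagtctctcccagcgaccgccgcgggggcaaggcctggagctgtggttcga
ANGPTL4 (chr19:8363905-8364204, plus strand): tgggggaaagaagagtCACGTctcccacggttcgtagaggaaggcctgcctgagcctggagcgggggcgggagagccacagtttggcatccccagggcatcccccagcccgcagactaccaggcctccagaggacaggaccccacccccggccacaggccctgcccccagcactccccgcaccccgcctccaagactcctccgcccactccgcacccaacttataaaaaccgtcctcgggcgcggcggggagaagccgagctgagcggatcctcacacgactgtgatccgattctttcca

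The window of EGLN1 holds 1 core, which begins 13 bases before the start (position -13). That of PPP1R3C holds 4 matches, at -159, -138, -45 and -44, of which the last 2 overlap as the palindrome CACGTG and are the same letters read on both strands. The window of ANGPTL4 holds 1, at -234. Over all 67 windows of the 36 genes found in the table, 47 held either core (70.1%), against 48.4% of all 35116 windows of the same length, and 27 held ACGTG (40.3%) against 21.4%. The list was picked for known HIF targets, so that its share is a description, and a match is not evidence of binding in these cells. BNIP3L, NDRG1, PFKFB2, SLC16A1, SLC2A3 and VEGFA were not matched. The 3 genes shown thus share a core but moved differently, EGLN1 called lower, PPP1R3C higher without a call and ANGPTL4 lower without a call.

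The 3′ untranslated region (UTR) of EGLN1 also holds the heptamer GACAAGA once. This heptamer was picked from earlier results of these data, in which genes that carry it lay lower in siFAM53C, and its values are given as a description. Of the 12075 tested genes with an annotated 3′ UTR, 1400 (11.6%) carried it in the longest one. Of these, 15.1% were called lower, with a median log2FC of -0.18, against 2.92% of the 10675 others, with a median of 0.02. Among the 41 tested genes described here, EGLN1, PDK1, HK2, GPI and PFKFB2 carried it (12.2%), and their median was -0.07 against -0.05 for the other 36. The part of the heptamer in the fall of EGLN1 was not tested. The site of EGLN1 is shown with that of MXI1, a called gene of the wider pathway, and with the 3 sites of HIF1AN, which carries the heptamer and rose (both described below). ADPGK, CUL2 and ERO1A, also called lower and described below, do not carry it. No site was found in RBPJ either, which was also called lower and is described below. Capitals mark the heptamer.
EGLN1 (chr1:231365183-231365211, minus strand, hg38): tctgatctgcaGACAAGAaccttgtctct
MXI1 (chr10:110285412-110285440, plus strand, hg38): tcgaatgaaaaGACAAGAaaatcaggtat
HIF1AN, site 1 (chr10:100551842-100551870, plus strand, hg38): caccctgtgtgGACAAGAttagggactgt
HIF1AN, site 2 (chr10:100556662-100556690, plus strand, hg38): tgtgatgcactGACAAGAacagaggcttt
HIF1AN, site 3 (chr10:100558179-100558207, plus strand, hg38): gaggagcggagGACAAGAccctgaactaa

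HIF1A, the main oxygen-regulated subunit, stood at 585, 627 and 755 CPM in siCtrl and at 461 and 545 CPM in siFAM53C. Both siFAM53C libraries were below the siCtrl range, and the differences within the sides of the split were -0.40 and -0.47. The log2FC was -0.38 ± 0.149 (SE) and did not pass the test (adjusted p = 0.245, edgeR). Antisense genes overlap 432 exon bases of HIF1A. The study's methods give reverse strandedness for the alignment, but whether reads were counted by strand is not given in the sources used here. EPAS1, the HIF-2 alpha subunit, was at 39.7, 40.0 and 90.0 CPM in siCtrl and 29.2 and 61.5 CPM in siFAM53C. The groups overlapped, siCtrl replicate 3 and siFAM53C replicate 2 were the highest of all libraries, and within the sides of the split the differences were -0.45 and -0.55 (log2FC -0.32 ± 0.531, SE, adjusted p = 0.836, edgeR). Without siCtrl replicate 3 or siFAM53C replicate 1 the value of EPAS1 was 0.19 or 0.12. ARNT, the constant partner, had 32.2 ± 4.77 CPM (SD, n = 3) and 31.3 ± 1.51 CPM (SD, n = 2). EGLN3, the prolyl hydroxylase most induced by low oxygen in many cells, had no count in any library, which allows at most 0.113 to 0.157 CPM per library (3 counts, counting error only).

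The 12 other HIF targets cover vessel growth, pH control, mitophagy and lipid and glycogen use. None was called in edgeR. With no adjustment of p, 1 was higher and 2 were lower, against 6.61% and 10.5% of all genes. DESeq2 called 1 higher, against 2.02% of all genes, and limma-voom none. The gene DESeq2 called was PPP1R3C, a subunit that directs protein phosphatase 1 to glycogen. It stood at 10.2, 13.9 and 11.2 CPM in siCtrl and 17.8 and 21.1 CPM in siFAM53C. Both siFAM53C libraries exceeded every siCtrl library, by 0.58 and 0.91 within the sides of the split. The log2FC was 0.73 ± 0.190 (SE), with an adjusted p of 0.0904 in edgeR and 0.0238 in DESeq2.

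VEGFA, the vascular growth factor, was at 253, 206 and 84.5 CPM in siCtrl and 167 and 52.7 CPM in siFAM53C. The spread within each group was larger than the difference between them, and siCtrl replicate 3 and siFAM53C replicate 2 were the lowest of their groups. The log2FC was -0.72 ± 0.727 (SE, adjusted p = 0.714, edgeR), and within the sides of the split the differences were -0.45 and -0.68. CA9, the membrane carbonic anhydrase often used as a marker of hypoxia, was counted 24, 19 and 3 times in siCtrl and 44 and 4 times in siFAM53C, or 1.02, 0.994 and 0.157 CPM against 1.66 and 0.170 CPM. These counts are too low and too scattered for a direction, and the fitted value went from 0.34 to -0.01 in limma-voom.

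ADM (adrenomedullin, a vasodilator peptide) lay at 95.4, 94.2 and 93.7 CPM in siCtrl and at 88.2 and 75.8 CPM in siFAM53C, without overlap but with a log2FC of -0.20 ± 0.108 (SE, adjusted p = 0.396, edgeR). NDRG1, a stress-induced gene of the same pathway, was at 21.1, 25.1 and 13.9 CPM in siCtrl and 13.3 and 11.7 CPM in siFAM53C. Its siFAM53C libraries were below all siCtrl libraries, by little for siCtrl replicate 3, and the log2FC was -0.68 ± 0.255 (SE, adjusted p = 0.231, edgeR). ANGPTL4, an inhibitor of lipoprotein lipase, was at 64.6, 51.2 and 36.7 CPM in siCtrl and 36.1 and 29.1 CPM in siFAM53C.

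The siFAM53C values of ANGPTL4 were the 2 lowest, with a log2FC of -0.64 ± 0.236 (SE, adjusted p = 0.228, edgeR). Without siCtrl replicate 3 both genes passed, NDRG1 at -0.88 (adjusted p = 0.0131, edgeR) and ANGPTL4 at -0.82 (adjusted p = 0.0107, edgeR). That library was the lowest siCtrl library in both genes, and without it siFAM53C replicate 2 has no control on its side of the split. Neither gene passed without siCtrl replicate 1 (NDRG1 -0.64, ANGPTL4 -0.43) or siCtrl replicate 2 (-0.49 and -0.64). The values were -0.79 and -0.81 without siFAM53C replicate 1, and -0.59 and -0.50 without siFAM53C replicate 2. BNIP3 and BNIP3L (mitophagy receptors), ANKRD37, P4HA1 (a collagen prolyl hydroxylase), KDM3A (a histone demethylase) and AK4 (a mitochondrial adenylate kinase) overlapped between the groups, with log2FC values from -0.21 to 0.06. Pseudogenes of AK4 held 12.2% as many counts as the gene, and 909 of the 2253 exon bases of ANKRD37 are shared with an antisense gene, so that these levels are uncertain.

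Over all 41 tested genes, the siFAM53C libraries were both above the siCtrl range for 3 (SLC2A3, ENO2 and PPP1R3C) and both below it for 8 (SLC16A1, PFKP, LDHA, HIF1A, EGLN1, ADM, NDRG1 and ANGPTL4). Together these are 26.8% of the 41, and over all genes tested 16.7% were above and 18.8% below. The range over the 3 siCtrl libraries was wider than the log2FC in 33 of the 41 genes (80.5%), against 70.9% of all genes tested.

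This spread followed the library split. Of the 41 genes, 29 (70.7%) were lower in siCtrl replicate 3 than in the mean of siCtrl replicates 1 and 2 and also lower in siFAM53C replicate 2 than in replicate 1, against 34.0% of all genes, and 4 were higher both times, against 35.0%. VEGFA, CA9, PDK1 and PFKFB4 were lower and ALDOC and EPAS1 higher by at least 0.5 on the log2 scale both times, 6 of 41 genes (14.6%) beside 12.1% of all genes. EPAS1 differed by 1.17 among the siCtrl libraries and by 1.07 among the siFAM53C libraries, and VEGFA by -1.43 and -1.66. These are differences between libraries with the same siRNA. The libraries set apart, siCtrl replicate 3 and siFAM53C replicate 2, both carry the number 3 in their column names. What that number stands for is not given in the sources used here, and a link between it and the split was not tested.

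**Figure D4:**
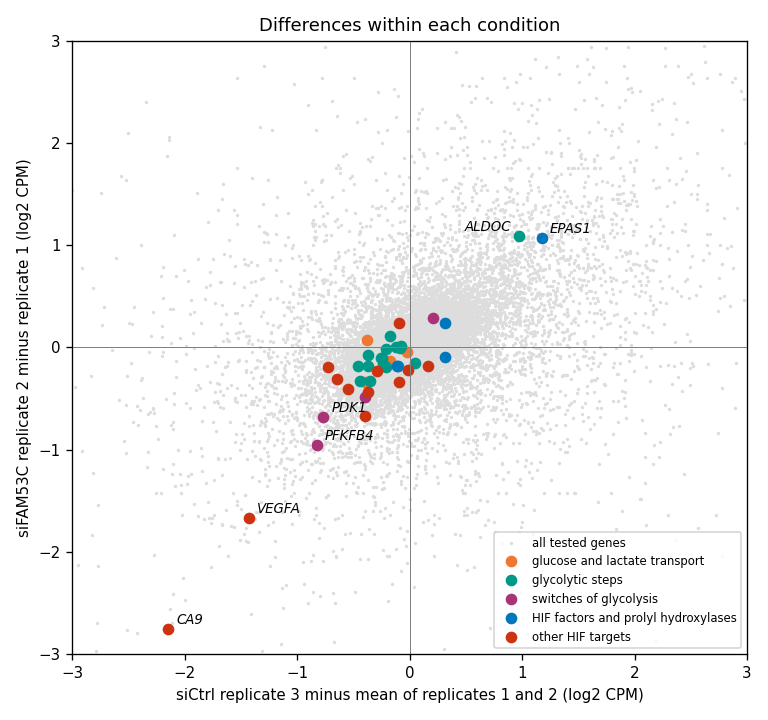
Difference between libraries of the same siRNA: siCtrl replicate 3 minus the mean of replicates 1 and 2 (x axis, log2 CPM) against siFAM53C replicate 2 minus replicate 1 (y axis, log2 CPM); grey points are all tested genes, of which 129 lie outside the axes at ± 3, and coloured points the 41 genes by role. The 6 named genes moved by at least 0.5 the same way both times, with EPAS1 and ALDOC at the upper right and VEGFA and CA9 at the lower left.

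With a term for the split in the model, 3 of the 41 genes were called higher (SLC2A3, PFKFB4 and PPP1R3C) and 6 lower (HIF1A, EPAS1, EGLN1, VEGFA, NDRG1 and ANGPTL4), beside 6.76% and 10.7% of all genes. The split was read from these same libraries, and the fit leaves 2 residual degrees of freedom, so these calls are an alternative. In that fit PFKFB4 had a log2FC of 0.65 (adjusted p = 0.00083, edgeR), EPAS1 -0.49 (adjusted p = 0.00179), VEGFA -0.55 (adjusted p = 0.00115) and HIF1A -0.43 (adjusted p = 0.000985). No enzyme of the glycolytic steps was called in it.

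Further genes of the same biology were taken from 2 lists, 55 other genes of glucose use and 68 other genes of the HIF pathway, of which 41 and 57 were tested. Both lists were chosen with earlier results of these data known, so that their counts of calls are a description. In the first list 1 gene was called higher and 1 lower, with a median log2FC of 0.02, and in the second 1 was higher and 4 were lower, with a median of -0.09 (all genes, 0.02, with 0.489% called higher and 3.47% lower). TXNIP, which restrains glucose uptake and is itself raised by glucose, rose. It stood at 20.3, 18.3 and 19.6 CPM in siCtrl and 30.3 and 29.9 CPM in siFAM53C, with no overlap and a log2FC of 0.63 ± 0.131 (SE, adjusted p = 0.0412, edgeR). ADPGK, an ADP-dependent glucokinase of the endoplasmic reticulum, fell from 56.1, 66.2 and 67.6 CPM to 34.1 and 38.7 CPM, with a log2FC of -0.80 ± 0.132 (SE, adjusted p = 0.0181, edgeR). Antisense genes overlap 540 exon bases of ADPGK, and among the genes below 325 of HIF1AN, 191 of CUL2, 581 of ERO1A and 205 of MXI1.

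In the HIF pathway list, HIF1AN (FIH1, the asparaginyl hydroxylase that blocks the activation domain of the alpha subunits) rose. It lay at 132, 130.0 and 128 CPM in siCtrl and 179 and 175 CPM in siFAM53C, a log2FC of 0.44 ± 0.094 (SE, adjusted p = 0.0447, edgeR), which became 0.0553 without robust estimation of the dispersions. EGLN1 and HIF1AN, the 2 oxygen-sensing hydroxylases that were called, thus moved in opposite directions, with no overlap between the groups in either. A further one, EGLN2, overlapped between the groups (log2FC 0.30, adjusted p = 0.686, edgeR). CUL2, the scaffold of the VHL ligase, fell from 75.7, 90.5 and 77.6 CPM to 49.4 and 43.6 CPM (log2FC -0.80 ± 0.128, SE, adjusted p = 0.0151, edgeR).

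ERO1A, an oxidase of the endoplasmic reticulum that forms disulfide bonds and is induced by HIF, was at 160, 171 and 172 CPM in siCtrl and 103 and 102 CPM in siFAM53C. Its groups were far apart for their spread, with a log2FC of -0.71 ± 0.099 (SE, adjusted p = 0.00916, edgeR). MXI1, a MAX partner that opposes MYC, fell from 17.8, 14.5 and 12.5 CPM to 7.33 and 5.56 CPM (log2FC -1.21 ± 0.235, SE, adjusted p = 0.0328, edgeR). RBPJ, best known as the DNA-binding factor of the Notch pathway, was at 109, 113 and 96.6 CPM in siCtrl and 50.9 and 42.2 CPM in siFAM53C. With a log2FC of -1.19 ± 0.131 (SE, adjusted p = 0.00314, edgeR), it was the only gene of these 7 to keep its call without each library in turn, with adjusted p from 0.000227 to 0.0305. The other 6 lost theirs without at least siCtrl replicate 2 and either siFAM53C library.

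**Figure D5:**
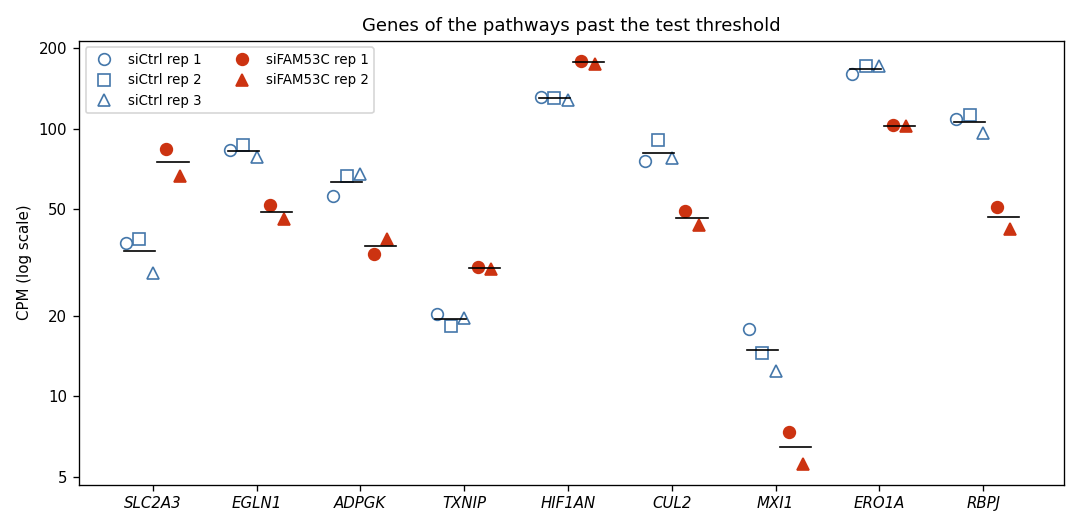
CPM (log scale) in each library of the 9 genes called in either direction, the 2 of the main list first and then those of the 2 further lists; open blue symbols are siCtrl, filled red symbols siFAM53C, and black lines the mean of each group. In all 9 genes the siFAM53C libraries lie outside the siCtrl range, above it for SLC2A3, TXNIP and HIF1AN and below it for the other 6.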

How the data were processed

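Raw counts per gene were deposited by the authors for 5 libraries of RPE-1 cells, 3 siCtrl and 2 siFAM53C. Per the labels and the study's methods, reads were trimmed with cutadapt 2.10 (minimum length 25), aligned to hg38 with HISAT2 and assigned with featureCounts; the annotation release and the strandedness of the counting are not given in the sources used here. The 64252 identifiers were matched to GENCODE 44 (56105 matched), which gave symbols, coordinates, exon lengths and 3′ UTRs. Genes were filtered with filterByExpr (minimum count 10, minimum total 15), scaled with TMM factors and tested with edgeR 4.0.16 (quasi-likelihood, robust estimation, R 4.3.3; Benjamini-Hochberg, 0.05). Log2 CPM values used a prior count of 2. TPM divides counts by the merged exon length, which ignores transcript choice.

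The genes and lists were chosen with earlier results of these data known. All 42 genes are named. Values per library are given for called genes, for those outside the siCtrl range by a log2 fold change of at least 0.5, and for 15 well-known members. Of the further lists, called genes are named, at most 6 per list and direction, and EGLN2 for comparison. PFKFB2, ENO2, PFKP, SLC16A1 and others appear by group means. On simulated data for this comparison (15341 genes), edgeR recovered 58 of 100 genes changed by a log2 of 1. It recovered 89 of 100 changed by 2 and called 11 unchanged genes. The changed genes were drawn from better-counted genes only and the simulation held no library split, so that recovery of low genes was not measured. Alternatives were DESeq2 1.42.0, limma 3.58.1 (voom), other scalings and filters, replicate blocks, a term for the library split, and each library left out.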

Additional observations from a re-analysis of the deposited data

How the results depend on the processing

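Of the 42 genes, 1 was called higher and 1 lower as reported. Higher calls numbered 2 with DESeq2, with no filter or with unadjusted p, and 3 with the split term or a replicate block by column names; lower calls numbered 3 with no filter or a block by titles, 4 with unadjusted p, 5 with a block by column names and 6 with the split term. With single libraries left out they ranged from 0 to 1 higher and 0 to 3 lower. In the further lists (2 higher and 5 lower as reported), higher calls were 1 without robust estimation, an alternative chosen after seeing the data, 4 with a block by titles, 5 with no filter, 6 with DESeq2, 7 with a block by column names, 9 with the split term and 10 with unadjusted p. Lower calls were 8 with DESeq2, 11 with no filter or a block by titles, 19 with a block by column names or unadjusted p and 22 with the split term. Leaving out single libraries gave 0 to 5 higher and 1 to 10 lower. The cause of these shifts was not tested. The second siFAM53C library carries number 2 in its title and 3 in its column name, and neither numbering is shown to pair the libraries. Deviations of same-numbered libraries from their group means correlated at 0.169 and -0.285 by title, and at 0.169 and 0.371 by column name. With 2 siFAM53C libraries, the deviations of one are those of the other with the sign turned, so these values cannot decide a pairing.

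Values near 0 changed sign. HK2 was 0.0061 with total counts. GAPDH was 0.0075 with a mean CPM of at least 1, 0.052 with a block by column names, 0.020 with the split term, 0.067 with total counts and 0.046 with upper-quartile scaling. Total counts and upper-quartile scaling moved the median of all genes by 0.071 and 0.050, and GAPDH moved with it. EPAS1 was 0.093 with a block by titles, and CA9 -0.0059 in limma-voom and -0.62 with a block by titles. With single libraries left out, HK2 ranged from -0.15 to 0.0058, GAPDH from -0.064 to 0.050, PFKFB3 from -0.40 to 0.089, PFKFB4 from -0.031 to 0.93, EPAS1 from -0.95 to 0.19 and CA9 from -2.07 to 1.18. The median over the 41 genes was 0.024 with total counts. With 3 against 2 libraries, changes below a log2 of 1 are often missed, and genes under about 1 CPM such as CA9 cannot be ordered.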
